A study of Mus musculus with 32 samples.

Results

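The 5 genes described here are Cyp2b10, Cyp2e1, Cyp2f2, Cyp4b1 and Por, of 50686 genes in the count table of brown fat taken from between the shoulder blades (interscapular brown adipose tissue, iBAT), a depot that burns fuel to make heat. They were chosen by symbol, with their levels in these same libraries already known and Cyp2b10 singled out for the size of its swing over the day, so their levels over time are given as a description, and the counts of tests they passed, set beside those of all genes, carry no weight of their own. All 5 passed the filter on low counts that left 15505 genes. The tissue came from untreated male C57BL/6J mice of 10 weeks, fed chow and not fasted, under 12 h of light and 12 h of dark. Zeitgeber time (ZT) counts the hours from lights on, so that the lights went on at ZT0 and off at ZT12, when mice become active. Mice were sampled every 3 h at 8 time points, 4 mice at each, and each gave 1 stranded paired-end library, 32 in all. Each mouse gave 1 time point, so a course over the day joins different animals.

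Cytochrome P450 enzymes are haem proteins of the endoplasmic reticulum or mitochondria that insert oxygen into drugs, fatty acids, sterols and vitamins. Most of those in the endoplasmic reticulum receive their electrons from 1 shared partner, NADPH-cytochrome P450 oxidoreductase, the product of Por. The family is best known from liver, where nuclear receptors that sense foreign compounds switch on the genes of the CYP2B and CYP3A subfamilies, and where parts of it follow the time of day. In fat, P450 enzymes are known mainly as oxidisers of fatty acids, retinoids and steroids.

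Libraries held 16300770 to 18254659 counts (median 17418661). Lane 2 of the sequencer carried ZT0, ZT3 and ZT6, lane 3 carried ZT9, ZT12 and ZT15, and lane 4 carried ZT18 and ZT21, so lane and time of day cannot be told apart between lanes. The 11 brown adipocyte markers were high throughout, between 10372 and 16604 CPM in sum (CPM, counts per 1000000 counts of a library after TMM scaling). The 12 liver markers reached 619 counts over all 32 libraries, 504 of them from Apoa2, with Ttr and Cyp3a11 at 0. The 6 markers of lung airway had 22 counts in all, with Sftpb at 0. Skeletal muscle markers differed most between libraries, from 2.23 to 5759 CPM in sum over 9 genes, and exceeded 1000 CPM in 15 libraries. Their mean sum was lowest at ZT6 with 361 CPM and highest at ZT15 with 2745 CPM. The 6 white adipocyte markers, of which Wt1 was at 0, ran from 43.9 to 328 CPM in sum and were likewise lowest at ZT6, with a mean of 53.7 CPM, and highest at ZT15, with 240 CPM. Cyp2b10 and Cyp4b1 had their lowest and highest means at the same time points and Cyp2f2 its lowest; the part of these markers in those courses was not tested. In whole tissue, fewer cells of a type and less RNA per cell cannot be told apart.

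The DNA before the start sites is shown for the genes with the largest and the steadiest swing and for the pair that varied together among mice. RefSeq promoter windows (build GRCm38.p6) cover the 250 bases before the annotated start, and all 5 genes had 1 window each. The Por window was 65.6% G and C and held 21 CG dinucleotides, a number that 85.2% of the 32851 windows of all genes do not exceed. Cyp2b10 had 4, Cyp4b1 3, Cyp2e1 2 and Cyp2f2 0 CG dinucleotides, against a median of 6 over all windows; CG was counted after the sequences were seen. Printed 5′ to 3′ is the part of each window that lies before the nearest GENCODE exon, with CG in capitals.
Cyp2b10 (chr7:25897408-25897619, plus strand): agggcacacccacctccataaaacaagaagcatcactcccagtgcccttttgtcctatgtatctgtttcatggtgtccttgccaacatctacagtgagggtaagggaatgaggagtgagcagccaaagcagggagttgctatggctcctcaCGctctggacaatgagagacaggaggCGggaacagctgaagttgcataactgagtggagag
Cyp2e1 (chr7:140763569-140763738, plus strand): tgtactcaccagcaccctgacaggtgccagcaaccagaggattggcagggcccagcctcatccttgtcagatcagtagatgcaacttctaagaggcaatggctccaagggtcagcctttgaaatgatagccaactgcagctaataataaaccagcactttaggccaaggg
Cyp2f2 (chr7:27119705-27119908, plus strand): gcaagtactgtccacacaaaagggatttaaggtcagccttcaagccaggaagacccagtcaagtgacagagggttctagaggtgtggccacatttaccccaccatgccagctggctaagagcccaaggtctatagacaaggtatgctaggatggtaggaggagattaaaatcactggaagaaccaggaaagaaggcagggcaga
Por (chr5:135688895-135689035, plus strand): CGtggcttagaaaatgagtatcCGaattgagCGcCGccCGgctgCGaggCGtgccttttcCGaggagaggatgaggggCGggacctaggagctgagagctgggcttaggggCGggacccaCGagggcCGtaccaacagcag
The Por stretch lies within the span of the gene in GENCODE, which begins further upstream, and before the first exon of the RefSeq transcript. None of the 5 windows held the E-box CACGTG, which 6.02% of all windows hold, or the D-box TTACGTAA or TTATGTAA, read on both strands, which 0.931% hold. The nuclear receptor half-site AGGTCA, read on both strands and present in 14.0% of windows, was found once, in Cyp2f2, 221 bases before the start. A match is a description of letters, and its absence here speaks only of these windows.

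Por (chromosome 5, 135670033 to 135735326, plus strand, GRCm38), the electron donor of the system, had the smoothest course. It read 184, 150.3, 201 and 128 CPM in the 4 mice of ZT0, and 182, 172, 204 and 204 CPM at ZT3. At ZT6 the mice had 281, 276, 259 and 236 CPM, and at ZT9 303, 327, 289.7 and 325 CPM. All 4 mice of ZT6 lay above all 4 of ZT0 and of ZT3, on the same lane. ZT12 gave 338, 310.5, 297 and 286 CPM and ZT15 214, 273, 275 and 259.8 CPM, the latter with every mouse below ZT9 and ZT12 of their lane. The mice of ZT18 had 176, 189, 204 and 179 CPM and those of ZT21 186, 165, 141 and 148 CPM. Means thus went from 159.8 ± 19.9 CPM at ZT21 (SD, n = 4) to 311 ± 17.9 at ZT9 (SD, n = 4), a ratio of 1.95. A 24 h cosine took up 87.6% of the variance of Por, with an amplitude of 0.52 ± 0.04 (SE) on the log2 scale and a peak at ZT 10.3 ± 0.27 h (SE). With lane as a further term in that cosine the amplitude was 0.51 ± 0.08 (SE).

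Cyp2e1 (chromosome 7, 140763739 to 140774987, plus strand) encodes the enzyme that oxidises ethanol, acetone and other small molecules, and it was the most abundant P450 gene of the tissue. Its level was 68.7, 104, 82.5 and 41.4 CPM at ZT0, then 70.7, 290.2, 177 and 73.9 CPM at ZT3 and 38.4, 129, 47.6 and 117 CPM at ZT6. The 3 time points of lane 2 overlapped. On lane 3, ZT9 had 309, 199.9, 329 and 209 CPM, ZT12 had 176, 311, 191 and 343 CPM, and ZT15 had 383, 275, 119 and 162 CPM. These 3 time points overlapped as well, while every mouse of ZT9 and ZT12 stood above every mouse of ZT0, ZT6, ZT18 and ZT21. ZT18 gave 66.8, 119.8, 67.0 and 114 CPM, and ZT21 71.8, 54.5, 53.5 and 49.8 CPM. The highest mean was 262 ± 66.8 CPM at ZT9 (SD, n = 4) and the lowest 57.4 ± 9.80 CPM at ZT21 (SD, n = 4), a ratio of 4.56. The cosine of Cyp2e1 had an amplitude of 0.98 ± 0.19 (SE, log2) and a peak at ZT 11.3 ± 0.73 h (SE). Since the high time points are those of lane 3, the amplitude beside a lane term was 0.17 ± 0.29 (SE, log2), and time and lane cannot be told apart for this difference.

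Cyp2f2 (chromosome 7, 27119909 to 27133660, plus strand), known from the airway, where its product activates naphthalene, had the lowest level per kb of exon of the 5 genes and, like Cyp2e1, its 3 highest means at ZT9, ZT12 and ZT15. The mice of ZT0 had 1.03, 3.61, 3.40 and 1.89 CPM, those of ZT3 1.50, 3.38, 2.26 and 2.64 CPM, and those of ZT6 0.836, 1.77, 1.12 and 1.95 CPM. At ZT9 the values were 14.7, 5.15, 6.87 and 6.41 CPM, at ZT12 2.58, 5.23, 7.71 and 12.2 CPM, and at ZT15 8.83, 8.69, 1.40 and 6.28 CPM. Every mouse of ZT9 lay above every mouse of lane 2, whereas ZT12 and ZT15 each reached down into that range through a single mouse. ZT18 followed with 2.20, 5.46, 4.34 and 2.73 CPM and ZT21 with 2.09, 1.66, 2.17 and 1.67 CPM, the latter all below ZT18 on the same lane. The mean was 8.27 ± 4.33 CPM at ZT9 (SD, n = 4) against 1.42 ± 0.528 CPM at ZT6 (SD, n = 4), a ratio of 5.83. The amplitude was 0.90 ± 0.21 (SE, log2) with a peak at ZT 12.7 ± 0.89 h (SE), and 0.15 ± 0.46 (SE, log2) beside a lane term. Of 2025 exonic bases 274 are shared with the antisense gene Gm15883, which had 4 counts in all libraries against 2337 of Cyp2f2; whether the counting used strand is not given in the sources used here.

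Cyp2b10 (chromosome 7, 25897620 to 25926624, plus strand), the drug-inducible P450 gene whose liver form is a classic target of the receptor CAR (Nr1i3), had the largest swing and the widest spread between mice. It was 40.4, 7.35, 29.6 and 13.5 CPM at ZT0 and 3.90, 11.3, 3.07 and 4.94 CPM at ZT3. By ZT6 the mice had 1.19, 0.828, 1.91 and 2.95 CPM, below all mice of ZT0 and ZT3 on the same lane. ZT9 remained at that level with 0.932, 2.49, 2.77 and 1.51 CPM. The 4 mice of ZT12 had 3.72, 11.3, 11.0 and 18.7 CPM and those of ZT15 54.4, 26.2, 12.9 and 12.1 CPM, in both cases above all mice of ZT9 on the same lane. ZT18 had 8.98, 5.74, 3.78 and 8.08 CPM, lower than every mouse of ZT15, and ZT21 again 34.9, 20.5, 8.91 and 20.5 CPM. Mean Cyp2b10 was thus higher on both sides of ZT18, at 26.4 ± 19.8 CPM at ZT15 and 21.2 ± 10.6 CPM at ZT21 against 6.64 ± 2.35 CPM at ZT18 (SD, n = 4 each). ZT15 and ZT18 lie on different lanes, so lane and time cannot be told apart on that side. ZT18 and ZT21 share a lane and overlapped through 1 mouse each. Replicate 1 carried much of the ZT15 mean, which was 17.0 ± 7.92 CPM without it (SD, n = 3), below the means of ZT0 and ZT21. Between the lowest library, with 14 counts, and the highest, with 1036 counts, CPM differed 65.8-fold. A single cosine took up 47.2% of the variance of Cyp2b10, with an amplitude of 1.51 ± 0.30 (SE, log2) and a peak at ZT 19.2 ± 0.75 h (SE). The share was 48.5% for Cyp2e1, 44.1% for Cyp4b1 and 39.1% for Cyp2f2, so a partial fit was common to the 4 P450 genes. Beside a lane term the amplitude of Cyp2b10 was 2.73 ± 0.37 (SE, log2), with a peak at ZT 20.5 ± 0.77 h (SE). That fit implies 43.7-fold from trough to peak, against a ratio of 15.3 between the highest and lowest means. Each lane holds only part of the day, so this is not a swing corrected for lane. The 4 other Cyp2b genes had 2 counts between them, and 3 of them had none.

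Cyp4b1 (chromosome 4, 115624725 to 115647723, minus strand), of a subfamily that hydroxylates fatty acids and activates lung toxicants, moved least. The mice of ZT0 had 26.4, 32.9, 35.0 and 32.9 CPM, those of ZT3 26.6, 22.6, 26.9 and 22.2 CPM, and those of ZT6 21.1, 20.2, 20.5 and 26.1 CPM. ZT6 lay below ZT0 in every mouse. ZT9 had 24.6, 30.5, 28.3 and 30.6 CPM, ZT12 27.0, 31.9, 30.5 and 24.7 CPM, and ZT15 51.1, 32.5, 39.3 and 43.5 CPM. Every mouse of ZT15 exceeded every mouse of ZT9 and ZT12 on the same lane. ZT18 gave 39.2, 29.7, 34.1 and 32.5 CPM and ZT21 24.6, 28.0, 24.2 and 26.6 CPM, without overlap between them. The mean was 22.0 ± 2.79 CPM at ZT6 against 41.6 ± 7.77 CPM at ZT15 (SD, n = 4 each), a ratio of 1.89, and the cosine had an amplitude of 0.29 ± 0.06 (SE, log2) and a peak at ZT 16.4 ± 0.80 h (SE). Beside a lane term the amplitude was 0.45 ± 0.08 (SE, log2).

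**Figure D1:**
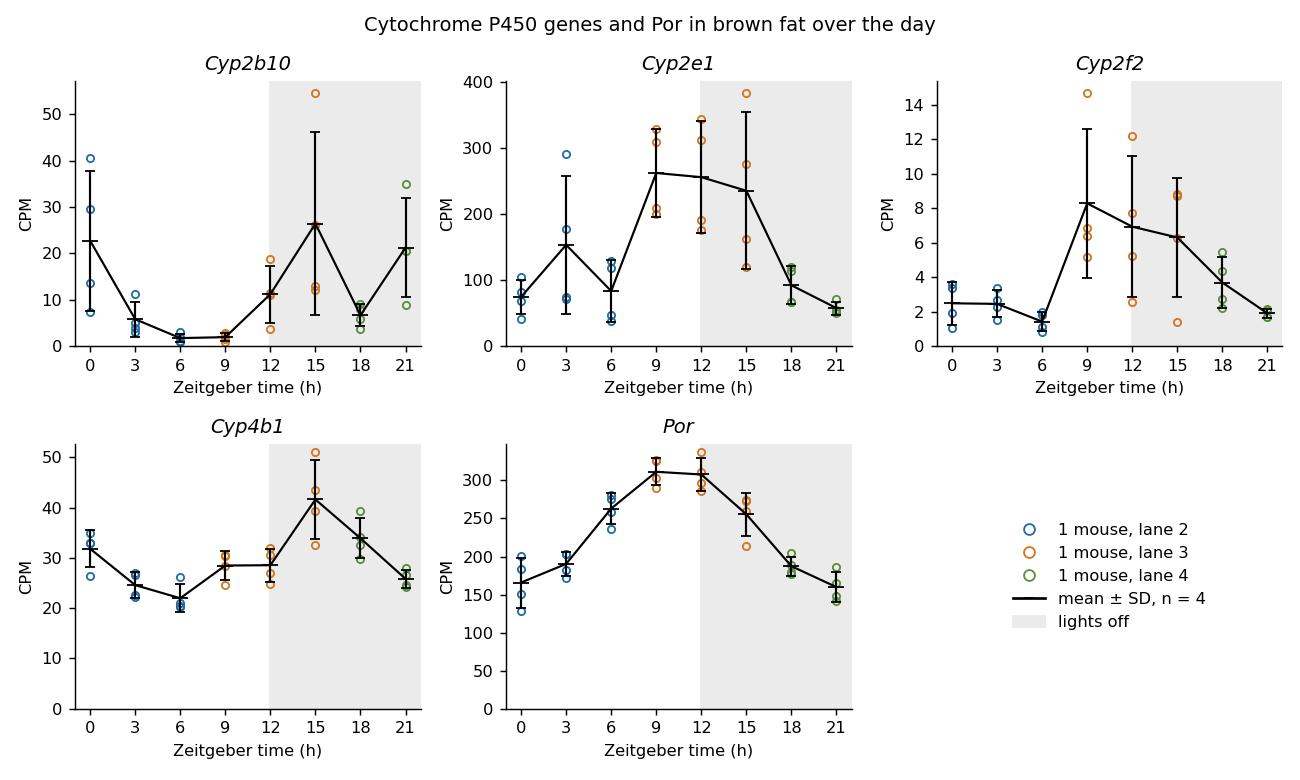
CPM of each gene against zeitgeber time in hours, with 1 open circle per mouse coloured by sequencing lane, mean ± SD (n = 4) in black and the dark phase in grey. Cyp2e1 and Cyp2f2 are high at the 3 time points of lane 3, Cyp2b10 has highs at ZT15 and at ZT21 to ZT0 with ZT18 between them at 6.64 CPM, and Por runs smoothly between 159.8 and 311 CPM. ZT18 lies on another lane than ZT15 and ZT0.

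Ordered by mean, neighbouring time points of the same gene mostly overlapped. The ranges of neighbours in that order were apart only for ZT3 above ZT9 in Cyp2b10, and for ZT12 above ZT6 and ZT15 above ZT3 in Por. The spread within time points also differed between the genes. The median coefficient of variation within time points was 54.5% for Cyp2b10, 45.2% for Cyp2f2 and 34.3% for Cyp2e1, against 11.6% for Cyp4b1, 8.04% for Por and 10.9% over all tested genes of at least 1 CPM. For Cyp2b10 97.9% of those genes had a smaller median, for Por 28.4%. Single time points overlapped. Cyp2f2 (14.3%) and Cyp2e1 (17.1%) at ZT21 lay below Cyp4b1 at ZT15 (18.7%) and Por at ZT0 (19.8%).

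The genes were chosen with their levels over the day known, so the counts that follow are given beside the background and nothing is read from them. All 5 genes passed the test of any difference between the 8 time points (edgeR quasi-likelihood test, Benjamini-Hochberg (BH) adjusted p under 0.05), which 39.8% of tested genes passed. All 5 also passed the 24 h cosine in edgeR, as 36.1% of genes did, and JTK at P under 0.05, a rank test against cosine templates, as 36.4% did. Beside a lane term the cosine kept 3 of the 5, Cyp2b10, Cyp4b1 and Por, with 17.2% of all genes passing. Within lane 2 the same 3 genes passed the test between time points, against 13.3% of genes. Within lane 3 it was Cyp2b10 alone, against 1.93% of genes, and within lane 4 Cyp2b10 and Cyp4b1, against 4.48%. These shares are unsteady: the 1974, 286 and 649 genes behind them numbered 914 to 3316, 58 to 827 and 60 to 999 under single changes of the analysis. Cyp2e1 and Cyp2f2 passed within no lane.

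Variation among mice killed at the same hour is separate from the swing over the day. The levels behind it were nevertheless known when the genes were chosen, so the p-values of these relations are given as a description. Deviations of log2 CPM from the time-point means were compared for the 10 pairs. Mice with more Cyp2e1 than others of their time point also had more Cyp2f2, with Pearson's r = 0.62 and Spearman's rho = 0.67 over 32 mice, and 23 of 32 mice had both genes on the same side of their time-point mean. It was the 1 pair of 10 that passed (permutation within time points, 100000 resamples, two-sided, p = 0.00052, BH-adjusted p = 0.0052; for rho permutation p = 0.00036, BH-adjusted p = 0.0036). Without the 2 mice farthest out in Cyp2e1, r was 0.59 (permutation p = 0.00294). Within lanes r was 0.66 on lane 2 (12 mice, exact permutation p = 0.0235), 0.75 on lane 3 (12 mice, exact permutation p = 0.0171) and 0.38 on lane 4 (8 mice, exact permutation p = 0.385), so the relation was not detectable on lane 4 alone. Both genes lie on chromosome 7, far apart at the coordinates given above.

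Cyp2b10 and Cyp2e1 gave r = 0.37 and rho = 0.37 (permutation p = 0.0727 for r and 0.0698 for rho, BH-adjusted p = 0.363 for r), with r = 0.46 without the 2 mice farthest out (permutation p = 0.0359) and r = 0.17, 0.70 and 0.34 on lanes 2, 3 and 4 (exact permutation p = 0.607, 0.0375 and 0.394). The 8 remaining pairs lay between r = -0.26 and r = 0.17 with BH-adjusted permutation p from 0.705 to 0.902. Por, the partner of the P450 enzymes, passed with none of the 4. Its r with Cyp2e1 was -0.16 over 32 mice, -0.0037 on lane 2 (12 mice, exact permutation p = 0.987), -0.74 on lane 3 (12 mice, exact permutation p = 0.0241) and 0.24 on lane 4 (8 mice, exact permutation p = 0.495). With Cyp2b10 it was -0.07 over all mice, with 0.17, -0.71 and 0.37 on lanes 2, 3 and 4 (exact permutation p = 0.69, 0.0305 and 0.502). These within-lane values are unadjusted, and the difference between lanes was not tested.

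Summed markers of 11 cell types were compared with the 5 genes in the same way. None of the 55 pairs passed after adjustment, by Pearson's r or by Spearman's rho, and 10 and 5 had an unadjusted permutation p under 0.05. The lowest p values belonged to Cyp4b1 with the 8 endothelial markers (r = 0.63, rho = 0.58, permutation p = 0.00106 for r and 0.00278 for rho, BH-adjusted p = 0.0583 for r; r = 0.50 without the 2 mice farthest out) and Cyp2e1 with the 9 markers of fibroblasts and preadipocytes (r = 0.57, rho = 0.50, permutation p = 0.0029 for r and 0.0131 for rho, BH-adjusted p = 0.0797 for r; r = 0.42 without the 2 mice farthest out). For Cyp4b1 and endothelium r was 0.54, 0.70 and 0.87 on lanes 2, 3 and 4. With scaling by library size alone instead of TMM both pairs passed, at r = 0.73 and r = 0.61 (permutation, BH-adjusted p = 0.00605 and 0.0179). Endothelial markers ran from 886 to 1324 CPM in sum and those of fibroblasts from 378 to 1149 CPM, with none at 0; their part in the levels of Cyp4b1 and Cyp2e1 was not tested further. Muscle markers, which differed most, had r between -0.17 and 0.24 with the 5 genes (permutation p from 0.252 to 0.805), and white adipocyte markers between -0.28 and 0.36 (permutation p from 0.0547 to 0.976).

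**Figure D2:**
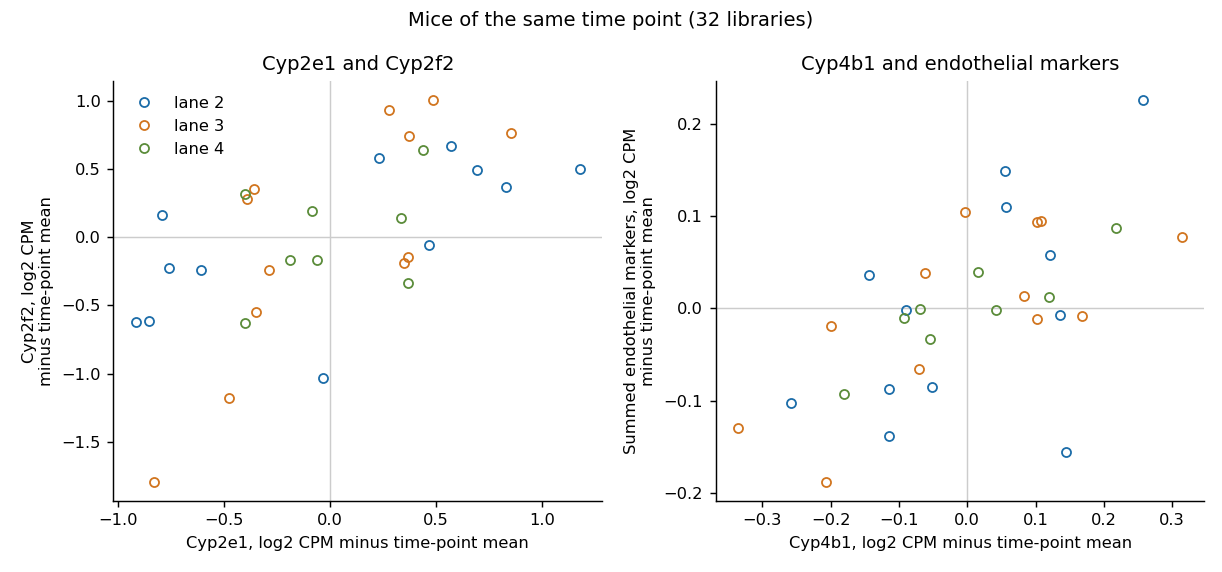
Deviations of log2 CPM from the time-point mean for 32 mice, coloured by lane: Cyp2f2 (y) against Cyp2e1 (x) at left, and the summed endothelial markers (y) against Cyp4b1 (x) at right. Points rise from lower left to upper right in both, with r = 0.62 and r = 0.63.

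Part of the P450 family was detected in brown fat. Of 94 P450 genes named by the pattern Cyp, family, subfamily and number, 33 had no count in any library, 39 had counts but too few to test, and 22 were tested, among them the 4 described above. Per kilobase of exon Cyp2e1 stood first with a mean of 70.2 CPM per kb, followed at lower places by Cyp4b1 with 13.1, Cyp2b10 with 5.78 and Cyp2f2 with 2.06 CPM per kb; Por had 57.2 CPM per kb. Cyp27a1, the mitochondrial sterol 27-hydroxylase, came next after Cyp2e1 with 28.0 and Cyp2d22 with 20.7 CPM per kb. P450 genes together took 0.0395% to 0.0915% of the counts of a library, with a median of 0.0485%. The 4 genes held between 15.0% of the P450 counts, in a mouse of ZT6, and 59.3%, in a mouse of ZT15. Their mean share was 47.7% at ZT9, 46.8% at ZT12 and 45.2% at ZT15 and between 23.4% and 33.7% at the other time points. The 3 high time points are those of lane 3, so lane and time cannot be told apart for this difference. Cyp2e1 alone held 28.7% of all P450 counts, against 5.57% for Cyp4b1, 2.30% for Cyp2b10 and 0.789% for Cyp2f2.

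**Figure D3:**
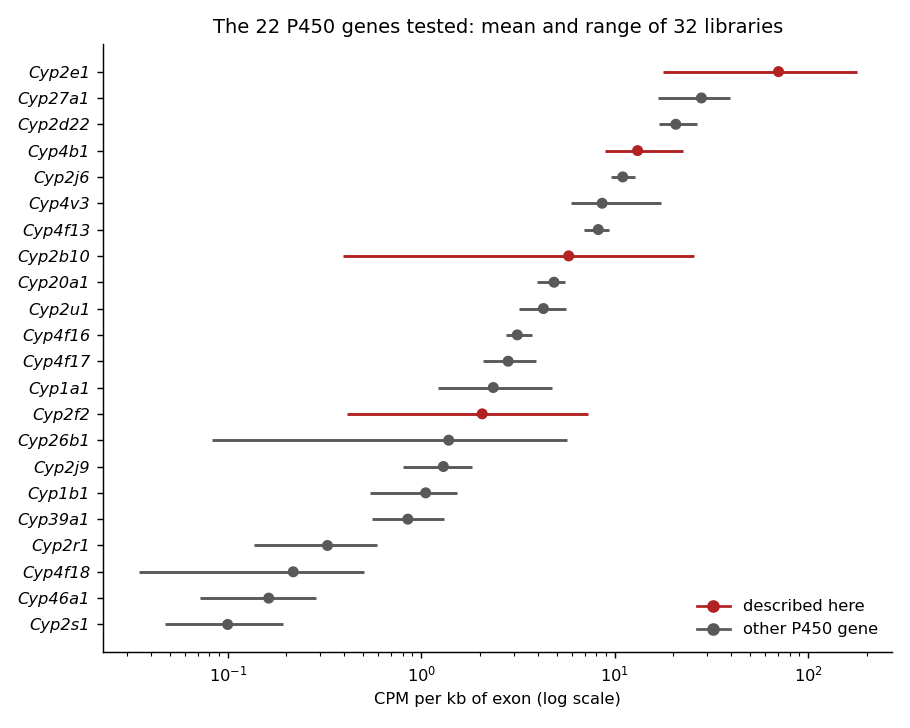
CPM per kb of exon on a log axis for the 22 P450 genes tested, as the mean (dot) and the range over 32 libraries (line), with the 4 genes described here in red. Cyp2e1 stands first at 70.2 CPM per kb, and the line of Cyp2b10 runs from 0.392 to 25.8 CPM per kb.

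Of the 18 other P450 genes tested, 4 (22.2%) passed the 24 h cosine in edgeR, with 36.1% of all genes passing, and all 4 peaked in the light phase. They were Cyp4v3, a fatty acid hydroxylase (amplitude 0.34 ± 0.06 SE on the log2 scale, peak at ZT 11.3, BH-adjusted p = 0.000129, edgeR), Cyp2j6 (0.11 ± 0.02, ZT 8.67, BH-adjusted p = 0.00186), Cyp4f17 (0.19 ± 0.05, ZT 0.29, BH-adjusted p = 0.00565) and Cyp1b1 (0.26 ± 0.08, ZT 8.58, BH-adjusted p = 0.0261). The peaks of Cyp4v3 and Cyp4f17 lay close to lights off and lights on, with SE of 0.67 and 0.93 h. Cyp1b1 no longer passed without replicate 4 of ZT21 or replicate 3 of ZT9 (edgeR BH-adjusted p = 0.0522 and 0.051). None of the 18 passed beside a lane term, as 17.2% of all genes did, and 1, Cyp1b1, passed between time points within a lane (lane 2, edgeR BH-adjusted p = 0.0163). The median log2 amplitude over all 18 was 0.14, and over all tested genes 0.14. The abundant Cyp2d22 (80.8 CPM), Cyp27a1 (60.9 CPM) and Cyp4f13 (36.5 CPM) had BH-adjusted p of 0.48, 0.185 and 0.166 for the cosine in edgeR; without replicate 2 of ZT0 that of Cyp4f13 was 0.0449. In the edgeR test between the 8 time points Cyp27a1 and Cyp4f13 passed (BH-adjusted p = 0.0302 and 0.0435), among 6 of the 18, with 39.8% of all genes passing. Outside the naming pattern, and looked up after the values were seen, Cyp51 of cholesterol synthesis had 38.0 CPM and passed (0.52 ± 0.12 SE, log2, ZT 20.7, BH-adjusted p = 0.00205, edgeR).

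On the chromosome most P450 genes next to these had few or no counts. From Cyp2b10 to Cyp2f2, over 1236041 bases of chromosome 7, lie 11 P450 genes, of which 5 had no count and Cyp2b10 and Cyp2f2 alone could be tested. Next to Cyp2b10 stood Cyp2s1, which was tested, with 274 counts over all libraries, and Cyp2b13 with 2 counts. Beside Cyp2f2, Cyp2a12 and Cyp2t4 had 0 counts each. Cyp4a32, 3123 bases from Cyp4b1, had 4 counts. Cyp2e1 and Por had no P450 gene within 1 Mb.

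Electrons can also reach P450 enzymes through cytochrome b5, and mitochondrial P450 enzymes use ferredoxin, while all need haem. Of 12 genes for these partners and for haem supply, 11 were tested and 5 (45.5%) passed the cosine in edgeR, against 36.1% of all genes, 2 with a peak in the light and 3 in the dark; the amplitudes of these 5 ran from 0.18 to 0.30. Cyb5a, the b5 of the endoplasmic reticulum, was highest at ZT15 with 143 ± 14.7 CPM and lowest at ZT0 with 102 ± 8.92 CPM (SD, n = 4; amplitude 0.18 ± 0.03 SE, log2, ZT 14.1, edgeR BH-adjusted p = 0.000311). Cyb5b, its mitochondrial relative, peaked at ZT 23.0 (0.29 ± 0.08, BH-adjusted p = 0.0149, edgeR), and Pgrmc2, a haem chaperone, at ZT 4.23 (0.21 ± 0.03, BH-adjusted p = 1.41e-05, edgeR). Alas1, which starts haem synthesis, had means of 609 ± 22.3 CPM for ZT3 against 309 ± 109 CPM for ZT9 (SD, n = 4; 0.30 ± 0.09 SE, log2, ZT 22.1, edgeR BH-adjusted p = 0.0344). The call of Alas1 was lost with library-size scaling (edgeR BH-adjusted p = 0.0674) and without replicate 4 of ZT0, replicate 2 of ZT12 or replicate 1, 2 or 4 of ZT9 (edgeR BH-adjusted p from 0.0534 to 0.0676). Hmox1, which breaks haem down, peaked at ZT 11.3 (0.23 ± 0.07, BH-adjusted p = 0.019, edgeR), and Cyb5r3 with 109.9 CPM did not pass (BH-adjusted p = 0.622, edgeR). Beside a lane term 1 of the 11 genes passed, Pgrmc2, against 17.2% of all genes. This list was chosen with earlier results of these data known, so nothing is read from its shares.

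Of the receptors known to switch on P450 genes in liver, CAR, PXR and Hnf4a were scarce, whereas others were well expressed. Nr1i3 (CAR) had 74 counts in all 32 libraries, highest at ZT0 with 0.421 ± 0.103 CPM and lowest at ZT18 with 0.0417 ± 0.0278 CPM (SD, n = 4), and Nr1i2 (PXR) had 4 counts. Both were too low to test, as was Hnf4a at 0 counts. Ahr, the dioxin receptor, was present at 20.0 CPM and did not pass the cosine (edgeR BH-adjusted p = 0.159), though it passed without replicate 2 of ZT0 (edgeR BH-adjusted p = 0.0279) and in the test between time points (edgeR BH-adjusted p = 0.0113). Ppara and Nr3c1 had 132 and 133 CPM.

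Of the 18 receptors and regulators, 14 were tested and 9 (64.3%) passed the cosine in edgeR, against 36.1% of all genes. By fitted peak 4 fell in the light and 5 in the dark, with Hlf just before ZT12 and Tef just after. The list holds the clock-output factors Dbp, Tef and Hlf and their repressor Nfil3. It was chosen with earlier results of these data known, so nothing is read from its shares. With lane as a term 8 of the 14 passed, against 17.2% of all genes; the calls of Arnt and Nr3c1 were lost (edgeR BH-adjusted p = 0.245 and 0.804) and that of Tiparp was gained (edgeR BH-adjusted p = 0.0264, against 0.167 without the lane term). The largest amplitudes belonged to the clock-output factors of the PAR bZIP family, which bind the D-box, and to their repressor. Dbp went from 4.46 ± 0.802 CPM at ZT0 to 171 ± 42.7 CPM at ZT9 (SD, n = 4), with an amplitude of 2.66 ± 0.10 (SE, log2) and a peak at ZT 10.1 ± 0.14 h (edgeR BH-adjusted p = 6.94e-19). Tef peaked at ZT 12.1 ± 0.26 h (1.05 ± 0.07, edgeR BH-adjusted p = 3.46e-12) and Hlf at ZT 11.6 ± 0.27 h (1.03 ± 0.07, edgeR BH-adjusted p = 7.48e-12). Nfil3, the repressor at the same sites, peaked at ZT 20.4 ± 0.44 h (1.24 ± 0.14, edgeR BH-adjusted p = 4.97e-07). Fitted peaks of Por, Cyp2e1 and Cyp2f2 lay at ZT 10.3, 11.3 and 12.7, that of Cyp4b1 at ZT 16.4 and that of Cyp2b10 at ZT 19.2. For all of them but Por the cosine took up only 39.1% to 48.5% of the variance. Distances between these peaks were not tested. The peaks of Cyp2e1 and Cyp2f2 could not be placed beside a lane term, at ZT 9.04 ± 8.82 h and ZT 0.69 ± 7.90 h (SE). Ppara, the fatty acid receptor, was highest at ZT9 with 213 ± 83.5 CPM and lowest at ZT0 with 66.5 ± 53.1 CPM (SD, n = 4; 0.60 ± 0.16 SE, log2, edgeR BH-adjusted p = 0.0105). Nfe2l2 peaked at ZT 15.5 (0.34 ± 0.07, edgeR BH-adjusted p = 0.000674), Cebpa at ZT 6.55 (0.29 ± 0.07, edgeR BH-adjusted p = 0.00704) and Nr3c1, the glucocorticoid receptor, at ZT 13.7 (0.13 ± 0.04, edgeR BH-adjusted p = 0.0279). The call of Nr3c1 was lost without replicate 2 of ZT15 (edgeR BH-adjusted p = 0.051), with no filter (0.0512) and with the muscle marker sum as a covariate (0.055).

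Other enzymes of drug metabolism were abundant. Of 55 genes, 48 were tested and 30 (62.5%) passed the cosine in edgeR, 11 with a peak in the light and 19 in the dark, against 36.1% of all genes passing. The median amplitude of the 48 was 0.22 against 0.14 over all tested genes. This list too was chosen with earlier results of these data known, so nothing is read from these values. Beside a lane term 9 of the 48 passed, against 17.2% of all genes; of the genes described next, the calls of Aldh2, Gstz1 and Nnmt were lost there (edgeR BH-adjusted p = 0.0669, 0.278 and 0.673). Among the abundant ones, Ces1d, a carboxylesterase that also cleaves triglycerides, was lowest at ZT6 with 958 ± 87.7 CPM and highest at ZT18 with 1417 ± 33.4 CPM (SD, n = 4; edgeR BH-adjusted p = 6.8e-08). Aldh2, which follows Cyp2e1 in ethanol breakdown by clearing acetaldehyde, had 552 ± 15.7 CPM at its lowest, ZT6, and 682 ± 25.5 CPM at its highest, ZT18 (SD, n = 4; edgeR BH-adjusted p = 0.000509). Of the flavin monooxygenases, which oxidise drugs without a P450, 2 of the 4 tested passed, with a peak at ZT 17.8 for Fmo1 (0.35 ± 0.05 SE, log2, edgeR BH-adjusted p = 4.1e-05) and ZT 16.1 for Fmo2 (0.59 ± 0.08, edgeR BH-adjusted p = 2.47e-06), whereas Fmo4 and Fmo5 did not (edgeR BH-adjusted p = 0.681 and 0.0675). Fmo4 did pass the test between time points and the cosine beside a lane term (edgeR BH-adjusted p = 0.00317 and 0.0451). Xdh, xanthine dehydrogenase, peaked at ZT 16.4 (0.39 ± 0.05, edgeR BH-adjusted p = 9.78e-07) and Gstz1 at ZT 14.3 (0.23 ± 0.04, edgeR BH-adjusted p = 8.99e-05). In the light phase, Gstt2, a glutathione transferase, peaked at ZT 10.0 (0.61 ± 0.05, edgeR BH-adjusted p = 6.89e-10), Gstt3 at ZT 10.5 (0.42 ± 0.07, edgeR BH-adjusted p = 0.000246) and Nnmt, which methylates nicotinamide, at ZT 9.47 (0.56 ± 0.15, edgeR BH-adjusted p = 0.00605). Mgst1 at 411 CPM did not pass (edgeR BH-adjusted p = 0.727).

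**Figure D4:**
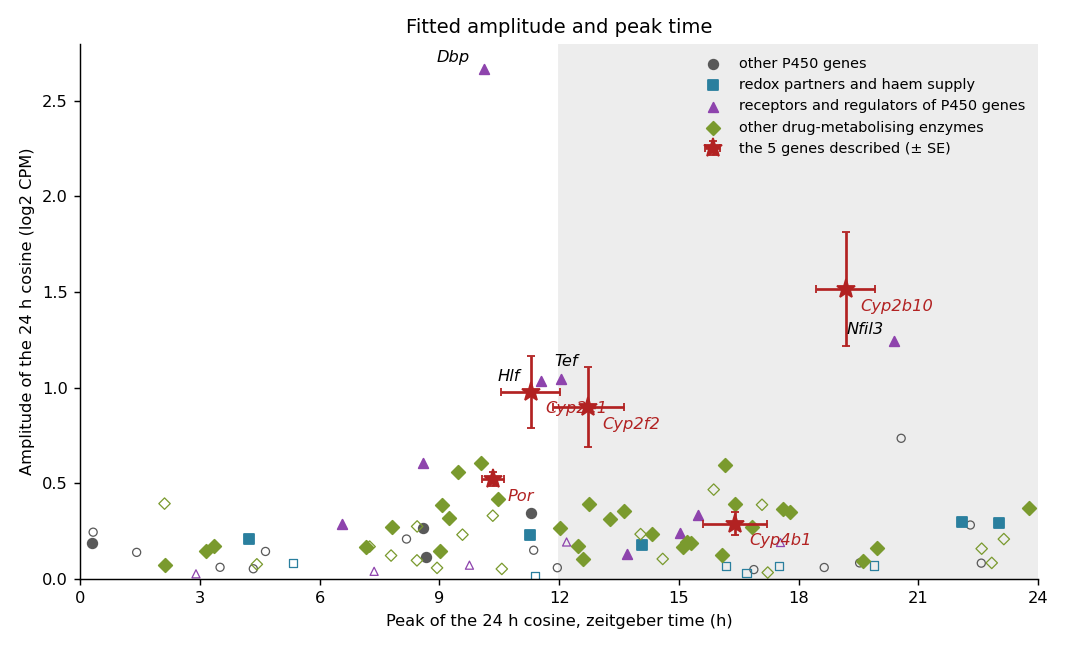
Fitted log2 amplitude against peak time of the 24 h cosine, with the 5 genes as stars (± SE), other genes by list, filled where the cosine passed in edgeR and open where it did not, and the dark phase in grey. Dbp stands highest at 2.66, Cyp2b10 stands at 1.51 and Nfil3 at 1.24, and Cyp2e1, Cyp2f2 and Por lie between ZT 10.3 and ZT 12.7.

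Among 13449 genes of at least 1 CPM, the 3 genes with the course most like each of the 5 were ranked by Pearson's r of log2 CPM over the 32 libraries, as a description; the points share libraries, lanes and time of day. For Por they were Dbp (r = 0.94), Nrg4 (0.90) and Ormdl3 (0.88). Cyp2e1 was followed most closely by Igfbp4 (0.87), Nnat (0.85) and Fkbp9 (0.84), and Cyp2f2 by Cyp2e1 itself (0.80), Txndc5 (0.78) and Slc7a10 (0.77). The list of Cyp4b1 held Bicra (0.87), P4ha2 (0.82) and Dnajb4 (0.82), that of Cyp2b10 Cd164l2 (0.80), Asph (0.76) and Gm10032 (0.74). Ranked instead by deviations from the time-point means, Cyp2e1 was nearest to Fkbp9 (0.85), Retn (0.83), which encodes the adipocyte hormone resistin and is among the white adipocyte markers, and C2 (0.83), and Cyp2f2 to Ccnd2 (0.80), Serpina3n (0.79) and 2010016I18Rik (0.79). By this measure Cyp2e1 ranked 26th for Cyp2f2, and Cyp2f2 ranked 54th for Cyp2e1. The summed white adipocyte markers, Retn included, had r = 0.33 with Cyp2e1 in such deviations (permutation p = 0.0547, BH-adjusted p = 0.252). Cyp4b1 was nearest to Pecam1 (0.69), an endothelial adhesion molecule among the markers used above, Fam219a (0.69) and Gm10069 (0.68). For Por these were Stat5a (0.82), Uhrf1bp1 (0.80) and Ulk1 (0.79), and for Cyp2b10 Fbxo31 (0.79), B230354K17Rik (0.72) and Zhx3 (0.72).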

How the data were processed

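Raw read counts per gene were deposited by the authors for 32 iBAT libraries, 1 per mouse. Per the study's methods and the submitters' processing notes, reads were mapped to mm10 with GSNAP and counted per Ensembl gene with HTSeq-count (0.6.1), without normalization; the strand setting is not given in the sources used here. Groups were the time points of the labels. Symbols and positions come from GENCODE M21 (GRCm38), which named 50376 of the 50686 genes.

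Counts were filtered with filterByExpr, scaled by TMM and tested with edgeR 4.0.16 (R 4.3.3; quasi-likelihood, BH threshold 0.05). Amplitudes and peak times come from a 24 h cosine on log2 CPM (prior count 2), whose log2 differences understate those of low genes. JTK was an own implementation with periods of 21 and 24 h and 15 templates. The methods were tested on simulated data.

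Genes named are the 5 members; of each list up to 5 with the highest mean CPM and up to 5 with the largest amplitude among those past the cosine (mean of at least 1 CPM); Nr1i2, Nr1i3, Ahr, Dbp, Tef and Hlf; P450 neighbours within 1 Mb; and the genes most alike. Arnt, Tiparp, Hnf4a, Fmo4 and Fmo5 were named after their values were seen, and their single values were not followed under the alternatives. Members and lists were chosen with earlier results of these data known, so nothing is read from the share of a list that passed. Alternatives were library size, DESeq2 1.42.0 size factors or its likelihood ratio test, no filter, no mitochondrially encoded genes, a replicate block, leaving out each library and, added after the data were seen, the muscle marker sum as a covariate.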

Additional observations from a re-analysis of the deposited data

Results flagged for a closer look

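Cyp4b1 at ZT6 had 1 mouse, replicate 4, apart from the others, with 26.1 CPM against 20.2 to 21.1 CPM in the other 3. Of 40 groups of 4 mice examined (5 genes at 8 time points) it was the 1 whose outermost mouse stood that far off, where chance alone picks about 1 group in 20.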

How the results depend on the processing

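Leaving out each library kept the amplitudes within 1.42 to 1.67 for Cyp2b10, 0.94 to 1.05 for Cyp2e1, 0.83 to 1.01 for Cyp2f2, 0.25 to 0.30 for Cyp4b1 and 0.50 to 0.54 for Por (log2). Lane as an additive term moved 4 of the 5 by more than 1 SE, to 2.73, 0.17, 0.15 and 0.45 for Cyp2b10, Cyp2e1, Cyp2f2 and Cyp4b1. Because each time point lies on 1 lane, such a fit can also remove time, and the larger values are not swings corrected for lane. The relation of Cyp2e1 with Cyp2f2 passed under every alternative, at r from 0.58 to 0.67 (permutation, BH-adjusted p at most 0.022), also with the muscle marker sum as a covariate. Pairs of a gene with a marker list, 0 as reported, numbered 2 with library-size scaling, 1 with the replicate block, 1 with the muscle covariate and 0 to 2 without single libraries (2 without ZT0 replicate 4 or ZT12 replicate 4, 1 without ZT0 replicate 3 or ZT3 replicate 4). Counts of list genes past the cosine stayed within 1.5 times under all alternatives run, and 1235 of 1248 values of the 32 named list genes kept their side of the threshold. Counts of genes between time points of 1 lane were the least steady. On lane 2, 1974 genes passed, 2983 with DESeq2 and 914 to 3316 without single libraries. On lane 3, 286 passed, 827 with DESeq2, 107 with the replicate block and 58 to 392 without single libraries. On lane 4, 649 passed, 999 with DESeq2, 60 with the replicate block and 190 to 404 without single libraries; the cause was not tested. Replicate numbers do not pair the mice: deviations of same-numbered libraries correlated at a median of -0.12, and 8 of 32 libraries were closest to one of their own number. Low counts limit the precision of Cyp2b10 at ZT6 and ZT9 and of Cyp2f2 at ZT6 and ZT21.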
